A study of Mus musculus with 2 samples.

Results

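The immunoglobulin genes of B cells were read from single-cell 5′ RNA libraries of mouse tumours. All genes with symbols that start with Ighv, Igkv, Iglv, Igkc or Iglc were taken, with the heavy constant genes Ighm, Ighd, Igha and Ighg1 to Ighg3, 211 of the 17775 genes listed. They comprise 103 Ighv, 93 Igkv and 3 Iglv segments, 7 heavy constant genes, Igkc and 4 Iglc genes. Ighe, the constant gene of IgE, is not listed. Their use was read in cells with at least 3 UMIs (unique molecular identifiers, 1 for each captured RNA molecule) of Cd79a, Cd79b and Ms4a1 summed, called gated B cells here. The first 2 genes encode the signalling partners of the B cell receptor and the last encodes CD20. The gate held 1596 of 4472 cells in the DFMO library (35.7%) and 85 of 6248 in the water library (1.36%). The other 2876 and 6163 cells are called ungated.

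Tumours of MC38, a mouse colon carcinoma line, grew in C57BL/6 mice kept in standard specific-pathogen-free housing. From day 7 the animals of the DFMO group received DFMO by gavage for 14 days, and those of the water group received water. DFMO (difluoromethylornithine) inhibits ornithine decarboxylase, which makes putrescine from ornithine. Cells of 4 mice were pooled in each group after a Ficoll step for immune cells, and the mice's age is not given in the sources used here. Each group is therefore 1 library, no difference between the libraries has a replicate check, and no p-value is given. Intervals are exact 95% intervals (Clopper-Pearson for shares, Poisson for rates, conditional binomial for ratios) and cover counting error only. For rates and ratios they treat each UMI as a separate draw, so they leave out the spread between cells and between mice.

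Each B cell joins 1 V segment to its heavy chain gene and 1 to a light chain gene, kappa or lambda, and the V segment forms much of the antigen-binding surface. A mature cell that has not met antigen carries IgM and IgD, which are spliced from 1 long transcript. After antigen contact, a cell can exchange Ighm for a downstream constant gene such as Ighg1 or Igha. Plasma cells, the end stage, devote much of their RNA to secreted antibody. Constant genes can also be transcribed from loci that are not rearranged, without a V segment. In a 5′ library, reads start near the 5′ end of the transcript, so those of a complete immunoglobulin mRNA fall first on the V segment.

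The ends of the 3 Ighv and 3 Igkv segments called in most DFMO cells, and of the 3 Iglv segments, are shown because segment calls rest on telling such stretches apart. They are the last 60 coding bases of each segment, from GENCODE M21 transcripts (genome build GRCm38, equal to mm10), 5′ to 3′ on the coding strand. Capitals mark the last in-frame cysteine codon, where the third complementarity-determining region begins.
Ighv1-26 (chr12:114788372-114788431, minus strand): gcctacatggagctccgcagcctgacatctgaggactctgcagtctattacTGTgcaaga
Ighv8-8 (chr12:115294062-115294121, minus strand): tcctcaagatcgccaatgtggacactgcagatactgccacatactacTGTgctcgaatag
Ighv3-6 (chr12:114288152-114288211, minus strand): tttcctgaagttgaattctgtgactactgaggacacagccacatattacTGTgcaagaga
Igkv10-96 (chr6:68631963-68632022, minus strand): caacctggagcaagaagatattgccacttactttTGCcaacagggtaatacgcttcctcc
Igkv1-117 (chr6:68121768-68121827, plus strand): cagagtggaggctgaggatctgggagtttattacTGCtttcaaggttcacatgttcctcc
Igkv1-110 (chr6:68271208-68271267, plus strand): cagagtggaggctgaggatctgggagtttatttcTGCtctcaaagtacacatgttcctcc
Iglv1 (chr16:19085017-19085076, minus strand): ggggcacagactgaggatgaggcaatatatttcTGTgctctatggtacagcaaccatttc
Iglv2 (chr16:19260401-19260460, minus strand): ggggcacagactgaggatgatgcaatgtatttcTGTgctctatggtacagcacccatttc
Iglv3 (chr16:19241207-19241266, minus strand): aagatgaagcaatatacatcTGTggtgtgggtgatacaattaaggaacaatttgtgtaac
Igkv1-117 and Igkv1-110 are close copies, and so are Iglv1 and Iglv2. Of the 31-base words in each segment, a median of 43.2% (0 to 98.1%) in Ighv and 48.4% (0 to 87.0%) in Igkv also occur in transcripts of other genes. In 39 Ighv and 44 Igkv segments more than 50% of the words are shared, so a call can stand for a close relative. Calls of such segments made up 606 of 1409 heavy calls and 741 of 1470 light calls in DFMO.

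The deposited UMIs numbered 23588037 in DFMO and 59748244 in water, with medians of 2232 and 6475 per cell. Gated cells had similar medians, 1799 and 1734. B cell markers outside the gate rule were present: Cd22, an inhibitory receptor of B cells, had a UMI in 39.3% of DFMO and 16.5% of water gated cells, and Pax5, a B cell transcription factor, in 16.5% and 10.6%. The water gate was less pure. At least 3 UMIs of Lyz2, Csf1r and Cd68, genes of monocytes and macrophages, were found in 11 of its 85 cells against 2 of 1596 in DFMO, and 9 water cells lay exactly at 3 gate UMIs against 2. The 4 monocyte and macrophage markers summed to 47.7 UMIs per 10000 in water gated cells and 0.924 in DFMO. At least 3 Cd3 UMIs were found in 3 of 85 water and 56 of 1596 DFMO gated cells, a similar share of each. The libraries share 37 cell barcodes, 16 of them on DFMO gated cells and 2 on water gated cells.

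Nearly all gated cells carried immunoglobulin RNA. In DFMO, 97.4% had an Ighv UMI, 95.6% an Igkv UMI, 90.9% a heavy constant UMI, 75.3% an Igkc UMI and 99.4% an Iglc UMI. The values in water were 83.5%, 84.7%, 81.2%, 70.6% and 89.4%. All 103 Ighv and 93 Igkv segments had UMIs in DFMO gated cells, and 49 and 53 did in the 85 water cells. The median cell had 47 immunoglobulin UMIs in DFMO and 38 in water.

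Summed over cells, immunoglobulin RNA made up 249.9 UMIs per 10000 in DFMO gated cells (248.3 to 251.5) and 923.8 in water gated cells (914.6 to 933.1). A group of 6 of the 85 water cells (7.06%, 2.63 to 14.7) held 91.3% of all immunoglobulin UMIs in the water gate. They had at least 500 each, a limit set after the values were seen, and the next water cell had 257. The DFMO library held 2 such cells of 1596 (0.125%, 0.0152 to 0.452), with 11% of the immunoglobulin UMIs, and the next cell had 264. Without these cells the sums were 225.1 per 10000 in DFMO and 105.3 in water, so the order of the libraries turned. With the cells that carry T cell or myeloid genes also left out, they were 234.7 and 156.9. Taken cell by cell, the medians were 255.2 and 244.8 per 10000.

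**Figure D1:**
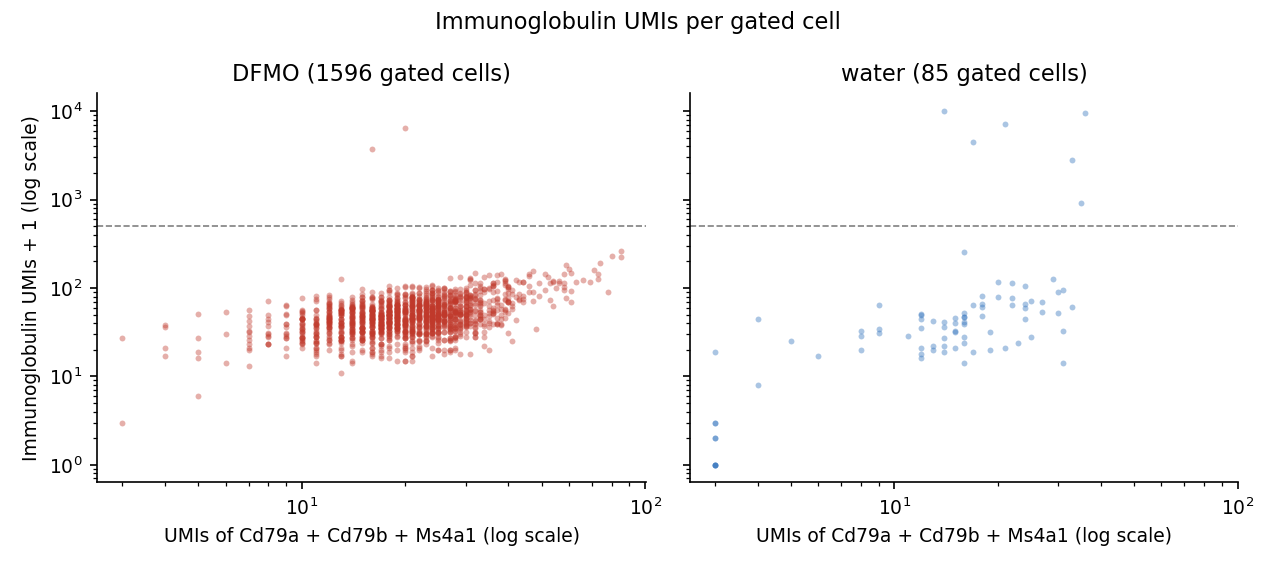
Immunoglobulin UMIs per gated cell (plus 1, log axis) against the UMIs of the 3 gate genes (log axis), 1 point per cell, for DFMO (left, 1596 cells) and water (right, 85 cells). The dashed line marks 500 immunoglobulin UMIs: 2 DFMO cells and 6 water cells lie above it, apart from the rest in UMIs not scaled for depth.

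In 7 of these 8 high cells 1 heavy and 1 light segment held nearly all V segment UMIs, 99.9 to 100% of the heavy and 96.6 to 100% of the light ones, and the leading pair differed from cell to cell. The water cell with most had 10008 immunoglobulin UMIs of 15249, of which 3856 were Ighv6-3, 5345 were Igkv9-123 and 322 were Igha, the constant gene of IgA. The second had 9489, led by Ighv1-26 (3091), Igkv4-59 (5764) and Ighg2c (259). The third had 7102, led by Ighv1-66 (3169), Igkv10-96 (3519) and Ighg2c (105). All 3 were thus led by a switched isotype. The fourth had 4492 immunoglobulin UMIs, with Ighv1-26 (1519), Igkv4-57 (2755) and Igha (84). The fifth had 2776, with Ighv1-15 (972), Igkv6-17 (1654) and Ighg1 (42). The sixth was the least rich, with 906 of 30275 UMIs, Ighv1-72 (56) and Ighg3 (19). It carried a pair of light segments, Igkv15-103 (380 UMIs, 57.3% of its light V UMIs) and Igkv1-88 (281), and so had no light call. Of the DFMO cells, 1 had 6473 immunoglobulin UMIs with Ighv1-81 (2537), Igkv4-55 (3479) and the unswitched Ighm (161). The other had 3702, with Ighv1-78 (834), Igkv14-111 (2672) and Ighg2c (77). The plasma cell markers (Jchain, Mzb1, Xbp1, Prdm1, Sdc1, Tnfrsf17 and Derl3) summed to a median of 857 UMIs in the 2 DFMO cells and 555.5 in the 6 water cells, against 1 in the remaining gated cells of either library.

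A heavy V segment was called in a cell with at least 2 Ighv UMIs when 1 segment had over 0.6 of them, and a light V segment likewise over Igkv and Iglv. Heavy calls were made in 1409 DFMO cells (88.3%) and 58 water cells (68.2%), and light calls in 1470 and 67. DFMO cells used 90 heavy and 88 light segments, and water cells 36 and 35. The chance that any 2 called cells share a segment was 2.14% in DFMO and 2.12% in water for heavy chains, and 2.18% and 2.85% for light chains. Neither library was thus dominated by 1 segment when cells, not UMIs, were counted. Segments annotated as pseudogenes took 9 heavy and 3 light calls in DFMO.

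The Ighv1 family, the largest of the mouse with 52 of the 103 listed segments, was called in 853 DFMO cells (60.5%, 57.9 to 63.1) and 34 water cells (58.6%, 44.9 to 71.4). The interval of the water value spans the DFMO value. Ighv8 (99 cells), Ighv5 (90), Ighv9 (72) and Ighv3 (70) followed in DFMO. Of the light chains, Igkv6 led in DFMO with 199 cells, before Igkv4 (197, with 25 segments) and Igkv1 (185, with only 6). In water Igkv4 led with 14 cells, before Igkv1 (8) and Igkv10 (7).

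The most used heavy segment was Ighv1-26 in both libraries, in 77 DFMO cells (5.46%, 4.34 to 6.78) and 6 water cells (10.3%, 3.89 to 21.2). It lies 1359 kb from the J genes, and 74.8% of its words are shared with other genes. Ighv8-8 was called in 53 DFMO cells and 2 water cells, and Ighv3-6 in 51 and 1. Then came Ighv1-18 (49 and 1), Ighv9-3 (48 and 3), Ighv1-64 (46 and 3) and Ighv1-82 (46 and 0). Ighv1-72 and Ighv1-9 were called in 43 DFMO cells each, with 2 and 3 in water, and Ighv1-81 in 42 and 2. Neighbours in this order, Ighv1-26 and Ighv8-8 included, differed by fewer cells than their intervals span. Of Ighv1-72, 98.1% of the words occur in other genes, the highest share of any Ighv segment.

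Among light segments, Igkv10-96 led in both libraries, with 72 DFMO cells (4.90%, 3.85 to 6.13) and 7 water cells (10.4%, 4.30 to 20.3). Igkv1-117 was called in 70 DFMO and 5 water cells, Igkv1-110 in 62 and 2, and Igkv14-111 in 60 and 2. Igkv6-17 (46 and 2), Igkv6-15 (45 and 1), Igkv1-135 (42 and 1), Igkv9-120 (42 and 2), Igkv19-93 (41 and 3) and Igkv17-127 (38 and 0) completed the 10. In all 20 leading segments, heavy and light, the interval of the water share included the DFMO share. Igkv5-48, outside the 10, was called in 5 water cells (7.46%, 2.47 to 16.6) and 30 DFMO cells (2.04%, 1.38 to 2.90). Ighv5-12 was called in 2 water cells (3.45%, 0.420 to 11.9) and 4 DFMO cells (0.284%, 0.0774 to 0.725). In both, the water interval left out the DFMO share, and no allowance was made for the number of segments compared.

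**Figure D2:**
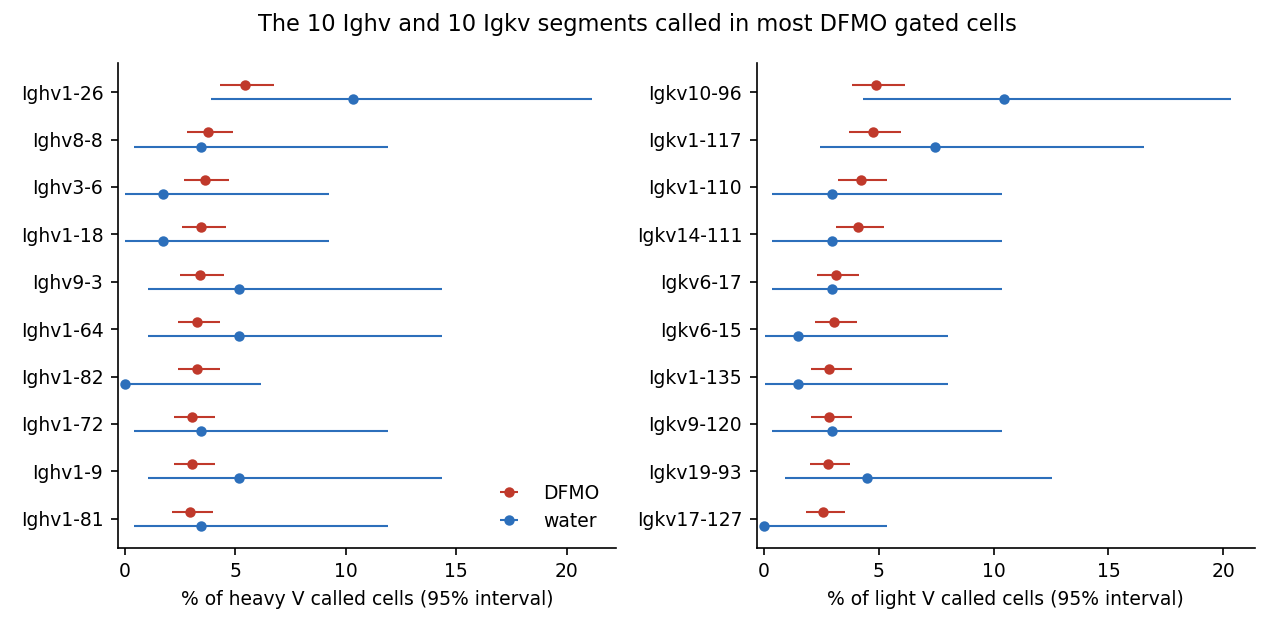
Share of heavy-V-called cells (left) and light-V-called cells (right) that use each of the 10 Ighv and 10 Igkv segments called in most DFMO gated cells, with exact 95% intervals, in DFMO (red) and water (blue). The DFMO shares lie between 2.59% (Igkv17-127) and 5.46% (Ighv1-26), and the wide water intervals rest on 58 heavy and 67 light calls.

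Use did not follow distance from the J genes in 1 direction at both loci. In DFMO, 17 Ighv segments within 500 kb of the J genes were called in 9.06 cells per segment. The values were 11.2 between 500 and 1000 kb, 16.3 between 1000 and 1500 kb, 12.3 between 1500 and 2000 kb, and 18.2 for the 23 segments beyond. Igkv segments can point either way along the locus, and those on the strand opposite to Igkc join by inversion. The 33 segments on the strand of Igkc were called in 631 of 1392 DFMO kappa cells (45.3%, 42.7 to 48.0), 19.1 per segment. The 60 on the other strand were called in 761 cells, 12.7 per segment. In water the counts were 25 and 39 of 64 cells. By distance, DFMO cells per Igkv segment were 16.2 within 500 kb, 14.4 up to 1000 kb, 10.5 up to 1500 kb and 8.40 up to 2000 kb. They were 20.3 between 2000 and 3000 kb, and 29.0 for the 2 segments beyond. In water, with 58 heavy calls, the Ighv values lay between 0.389 (1500 to 2000 kb) and 0.773 (1000 to 1500 kb) cells per segment.

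**Figure D3:**
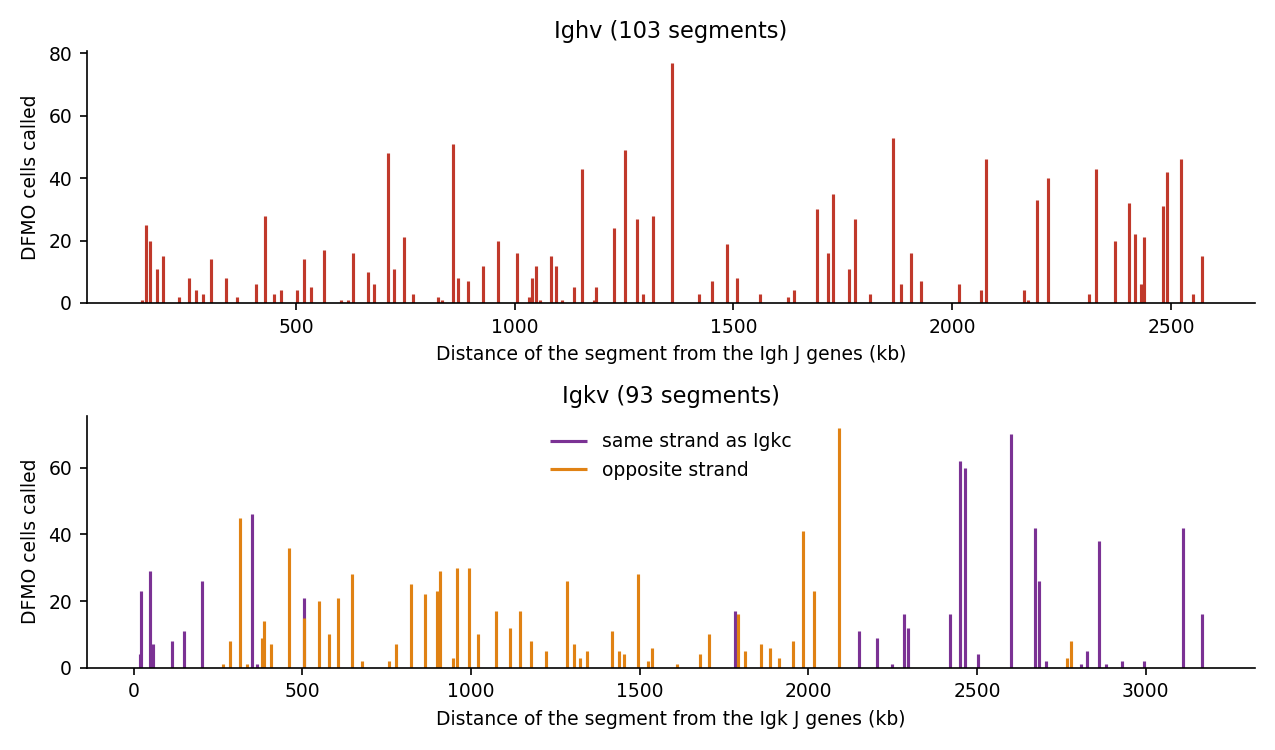
DFMO gated cells called for each of the 103 Ighv segments (top) and 93 Igkv segments (bottom), against the distance of the segment from the J genes of its locus in kb. Each line is 1 segment, and in the bottom panel purple lines lie on the strand of Igkc and orange lines on the other. Ighv1-26, at 77 cells, stands highest at the top, and Igkv10-96, at 72 cells, at the bottom.

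Both chains were called in 1304 DFMO cells, which held 1002 distinct pairs of segments, and in 52 water cells, which held 50. The most frequent pairs in DFMO were Ighv1-26 with Igkv10-96, Ighv1-75 with Igkv14-111 and Ighv3-6 with Iglv1, in 6 cells each. In water, Ighv1-26 with Igkv4-59 and Ighv1-9 with Igkv13-84 occurred in 2 cells each. A shared pair of segments does not show a shared clone, since junction sequences are not part of the files. A further light segment, with at least 3 UMIs and 20% of the cell's light V UMIs, was present in 282 DFMO cells (17.7%, 15.8 to 19.6) and 14 water cells (16.5%, 9.31 to 26.1). A further heavy segment was present in 90 (5.64%, 4.56 to 6.89) and 1. Both chains had one in 29 DFMO cells, and 47 DFMO cells combined a kappa with a lambda segment. Iglv1 with Iglv2, which share 36.8% of their words, made up 13 of the 282. No doublet caller was run, and the part of doublets in these counts was not tested.

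Kappa segments led the light chains. By V segment, 1392 of 1470 DFMO cells were kappa (94.7%, 93.4 to 95.8), and so were 64 of 67 water cells (95.5%, 87.5 to 99.1). The lambda cells of DFMO used Iglv1 (57 cells), Iglv2 (17) and Iglv3 (4), and the 3 of water used Iglv1. The constant genes gave another picture. With cells called from at least 2 Igkc and Iglc UMIs, 0.8 of them on 1 side, 8 of 917 DFMO cells were kappa (0.872%) and 2 of 49 water cells (4.08%), while 666 and 28 cells fell on neither side. This call sets UMIs of different genes side by side, and whether their RNA was captured equally well was not tested.

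Behind this call stood UMIs of Iglc2 and Iglc3, the constant genes of the lambda locus, which were detected in nearly every gated cell whatever its V segment. In DFMO, 99.6% of kappa V cells had an Iglc2 or Iglc3 UMI, with a median of 9, and 97.4% of the 78 lambda V cells did, with a median of 5. Igkc followed the V segment, with UMIs in 79.2% of kappa V cells (76.9 to 81.3) and 23.1% of lambda V cells (14.3 to 34.0). In water, all 64 kappa V cells had an Iglc2 or Iglc3 UMI, with a median of 7, and 50 had an Igkc UMI. The Iglc UMIs were not spread over all cells: Iglc2 was found in 4 of 1723 ungated DFMO cells with at least 3 Cd3 UMIs (0.232%) and in 0 of 1204 such water cells, which allows a share of cells with a UMI of up to 0.249% (3 counts of the total). Iglv3 was similar in kind, with UMIs in 276 DFMO gated cells (17.3%) but a call in only 4. The Iglv1-called DFMO cells held 37 UMIs of Iglc1, 269 of Iglc2 and 85 of Iglc3, and the Iglv2-called cells 5, 40 and 53.

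The first 90 coding bases of the 4 Iglc genes are shown because Iglc2 and Iglc3 carry most of the signal in kappa cells and can be confused with each other. They are GENCODE M21 sequences on GRCm38, 5′ to 3′ on the minus strand of chromosome 16, and capitals mark bases that differ from Iglc2 in an alignment of the whole coding sequences.
Iglc2 (chr16:19198764-19198853): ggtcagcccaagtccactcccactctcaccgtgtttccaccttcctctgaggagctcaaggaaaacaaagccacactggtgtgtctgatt
Iglc3 (chr16:19065592-19065681): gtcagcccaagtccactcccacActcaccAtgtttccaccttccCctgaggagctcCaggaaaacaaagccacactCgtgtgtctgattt
Iglc1 (chr16:19061982-19062071): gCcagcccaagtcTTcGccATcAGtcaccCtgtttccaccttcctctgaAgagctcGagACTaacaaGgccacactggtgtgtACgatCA
Iglc4 (chr16:19195223-19195312): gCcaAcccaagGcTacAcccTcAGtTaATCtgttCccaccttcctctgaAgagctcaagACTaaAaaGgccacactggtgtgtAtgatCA
Iglc3 is identical to Iglc2 at 96.2% of positions and shares 25.1% of its words with it, so UMIs can move between the pair. Iglc1 (73.4%) and Iglc4 (73.3%) share none. Iglc4 had 4 UMIs in DFMO gated cells and 0 in water.

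Most gated cells carried the constant genes of unswitched B cells. Ighm, the constant gene of IgM, had UMIs in 1265 DFMO cells (79.3%, 77.2 to 81.2) and 56 water cells (65.9%, 54.8 to 75.8). Ighd, that of IgD, had UMIs in 904 (56.6%, 54.2 to 59.1) and 34 (40.0%, 29.5 to 51.2), and 739 and 29 cells had both. The IgG genes were seen in few DFMO cells: Ighg1 in 14, Ighg2b in 9, Ighg3 in 7 and Ighg2c in 2. Igha had 26 UMIs in 25 DFMO cells, never more than 2 in a cell. In water, 430 of the 433 Igha UMIs and 364 of the 379 Ighg2c UMIs lay in the 6 high cells.

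An isotype was called with at least 2 heavy constant UMIs, and a cell was switched when Ighg and Igha UMIs outnumbered those of Ighm and Ighd. In DFMO 19 of 1140 cells were switched (1.67%, 1.01 to 2.59), led by Ighg1 in 11, Ighg2b in 6 and Ighg2c in 2. In water 9 of 50 were switched (18%, 8.58 to 31.4), led by Ighg2c in 4, Igha in 2, and Ighg1, Ighg2b and Ighg3 in 1 each. All 6 high water cells are among these. Without the high cells the shares were 18 of 1138 (1.58%, 0.94 to 2.49) and 3 of 44 (6.82%, 1.43 to 18.7), and the intervals overlap.

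Switched DFMO cells were largely cells with germinal centre genes. Germinal centres are sites where B cells divide, mutate and switch. Mef2b, Rgs13, S1pr2 and Gcsam, genes known from such cells, summed to at least 3 UMIs in 31 DFMO cells, a limit set after the data were seen. Near it, 6 cells had 3 or 4 such UMIs and 53 had 1 or 2, while 1512 had 0. Bcl6, a further germinal centre gene with a UMI in 11.1% of DFMO gated cells, was not in the sum. S1pr2 was not specific to gated cells, with 0.268 UMIs per 10000 in gated and 0.324 in ungated DFMO cells. Mef2b, Rgs13 and Gcsam were higher in gated DFMO cells (0.676, 0.335 and 0.230) than in ungated ones (0.00101, 0 and 0.0221). Of the 31 cells, 17 of the 26 with an isotype call were switched (65.4%, 44.3 to 82.8). Of the other 1565 cells, 2 of 1114 were switched (0.180%, 0.0217 to 0.647). The 31 cells were deeper, with a median of 9539 UMIs against 1785. At 1000 UMIs per cell, 3 of 4 called cells and 1 of 667 called cells were switched. In water 2 cells passed the same limit, and 1 of them was switched. The water gated cells held 21 UMIs of S1pr2, 2 of Mef2b and 0 of Rgs13 and Gcsam, so passing there rested on S1pr2. Ungated water cells carried S1pr2 too, at 0.356 per 10000 against 0.509 in gated ones, so these 2 cells are not shown to be germinal centre cells.

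**Figure D4:**
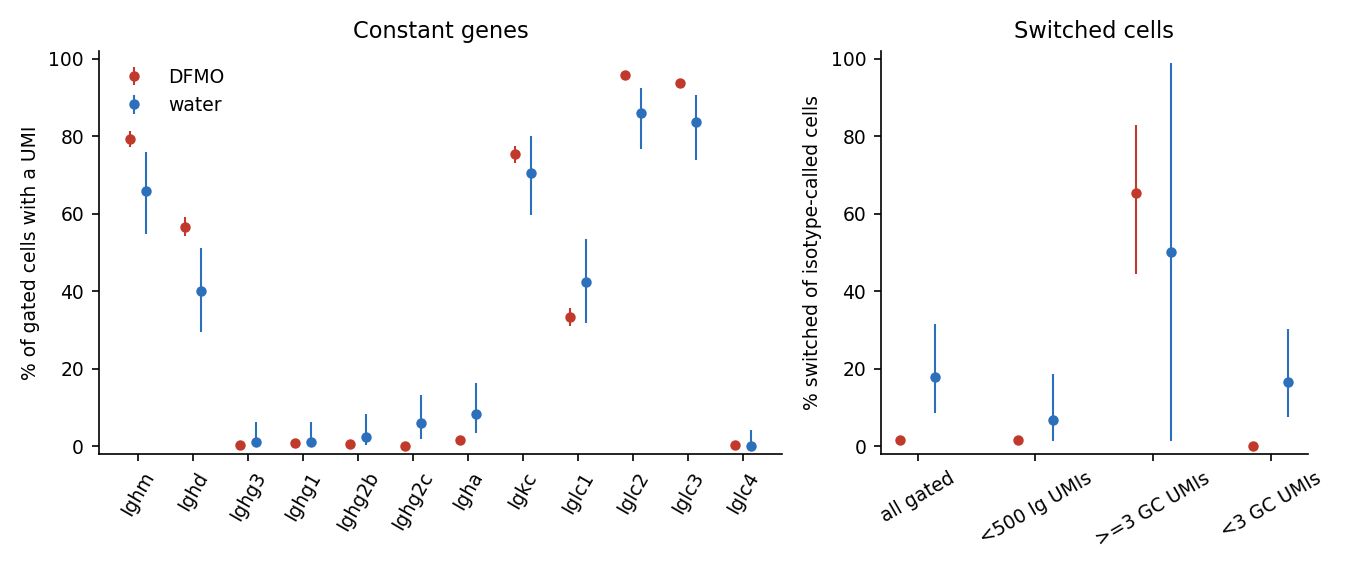
Left, share of gated cells with at least 1 UMI of each constant gene. Right, share of isotype-called cells that were switched, in all gated cells, in those under 500 immunoglobulin (Ig) UMIs, and in those with at least 3 or under 3 germinal centre (GC) UMIs. Points are DFMO (red) and water (blue) with exact 95% intervals. In DFMO the switched share was 65.4% with germinal centre genes and 0.180% without.

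Ratios of summed UMIs between the libraries' gated cells were taken for the 8926 genes with at least 30 UMIs, of which 21.3% had a log2 ratio of DFMO over water above 1 and 8.51% below -1. Of the 211 immunoglobulin genes 166 had 30 UMIs, and 118 of these were above 1 and 21 below -1. Of the 118, 59 had 0 UMIs in water and reached 30 UMIs through DFMO alone, from a gate with many more cells. With genes at 0 set at a floor of 3 UMIs per library, 103 of the 166 were above 1, against 20.3% of all genes, and the median log2 ratio was 1.36, against 0.29 over all genes. These counts describe the 2 libraries and support nothing further, since the filter kept segments for being frequent in DFMO. The gate genes themselves had log2 ratios of 1.56 (Cd79a), 1.32 (Cd79b) and 1.83 (Ms4a1), and myeloid genes were more abundant in the water gate, as given above. Without the high cells, 18.4% of 8872 genes were above 1 and 10% below -1, and with genes at 0 set at the floor 16.8% were above 1. Of 164 immunoglobulin genes tested there, 120 were above 1, 92 with the floor, and 9 were below -1.

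Ighm had 8.49 UMIs per 10000 in DFMO gated cells and 2.86 in water, a log2 ratio of 1.57 (1.30 to 1.85), and 1.24 without the high cells. Ighd had 4.15 and 1.14. The ratio of Igkc changed sign with the high cells, from -0.51 (-0.62 to -0.40) with them to 1.46 (1.22 to 1.71) without. That of Iglc1 went from -1.01 to 0.41 and that of Iglv1 from -0.42 to 0.66. Iglc3 had a log2 ratio of 1.17 either way, and Iglc2 of 0.48 with the high cells and 1.11 without. Iglv2 had 900 UMIs in 39 DFMO cells and 1 UMI in water.

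The list of 23 genes that recombine, switch, assemble, secrete or bind immunoglobulin held 16 with at least 30 UMIs, of which 9 were above a log2 ratio of 1 and 4 below -1 (median 1.16), beside 21.3% and 8.51% of all genes and log2 ratios of 1.32 to 1.83 for the gate genes. Of those below -1, Jchain, which links IgA and IgM units, had 4.96 UMIs per 10000 in DFMO gated cells and 69.2 in water. Mzb1, a chaperone of antibody assembly, had 5.73 and 13.9, Xbp1, a regulator of the secretory programme, 1.09 and 4.44, and Derl3, of protein quality control, 0.113 and 1.26. None of the 15 genes tested without the high cells was below -1, and 10 were above 1, beside 10% and 18.4% of all genes. Without these cells the gate genes were at 1.35 (Cd79a), 1.19 (Cd79b) and 1.56 (Ms4a1). The receptor Fcmr, which binds IgM, had a log2 ratio of 1.84 there, and Fcer2a, which binds IgE, 1.86. Spib, a transcription factor of B cells, was at 2.14, and Pou2af1, the co-activator at immunoglobulin promoters, at 1.44. Fcgr2b, the inhibitory IgG receptor that macrophages carry too, was at -0.63 (-1.02 to -0.22). Rag1, Rag2, Igll1 and Fcamr are not listed, and Dntt and Vpreb1, genes of B cell precursors, had 1 and 3 UMIs in DFMO gated cells and 0 in water.

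Outside the gate, immunoglobulin RNA was rare and of other make-up. It came to 1.10 UMIs per 10000 in DFMO and 0.398 in water, and heavy constant genes, almost all Ighm, made up 89.1% and 76.7% of it. The ungated DFMO cells held 1923 Ighm UMIs and 12 Ighv UMIs, and the water cells 1767 and 30. In gated cells the counts were 3141 and 14785 in DFMO and 118 and 13010 in water. Ighm UMIs thus outnumbered Ighv UMIs outside the gate, and the reverse held inside it. The water gate is a poor measure of this ratio in cells with Ighm. Its 6 high cells, all switched, held 9 of the 118 Ighm UMIs. The 3 richest of them held 3856, 3091 and 3169 UMIs of their leading Ighv segments. The origin of the ungated Ighm UMIs was not tested.

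Ighm was found in lymphoid and myeloid cells and was near 0 in cells without Ptprc, the gene of the pan-leukocyte protein CD45. Ungated cells with at least 3 UMIs of Cd3d, Cd3e and Cd3g summed, the Cd3 cells, had 2.64 Ighm UMIs per 10000 in DFMO (1520 UMIs in 1723 cells, 47.5% of them) and 0.879 in water (457 in 1204, 23.7%). Their log2 ratio was 1.59 (1.44 to 1.74). Thinned to 1000 UMIs, 28.5% and 10.4% of cells had a UMI. In cells with Ncr1 and Klrb1c, genes of natural killer cells, the rates were 1.33 and 1.23 (log2 ratio 0.11, -0.24 to 0.46). In cells with Lyz2, Csf1r and Cd68 they were 1.07 and 0.997 (0.10, -0.14 to 0.33). Cells without Ptprc had 0.0271 and 0.0104, and a UMI was found in 2.48% of them in DFMO and 1.08% in water, at median depths of 17028 and 13905. The Cd3 cells had median depths of 2166 and 2935. The part of stray RNA from other cells in these values was not tested.

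Within the Cd3 cells, Ighm varied with other genes. Cells with at least 2 UMIs of Lef1 and Tcf7, genes of naive and memory-like T cells, had 3.61 per 10000 in DFMO and 2.15 in water, against 1.86 and 0.798 in the others. Cells with Foxp3, the factor of regulatory T cells, had 4.34 and 2.80, against 2.47 and 0.660 without. Cells with at least 3 UMIs of the checkpoint receptors Pdcd1 and Lag3 had 0.842 and 0.475, against 3.54 and 1.23. The DFMO rate was the higher one in each of these 6 subsets, and the libraries differ in how many cells each holds, such as 889 and 88 with Lef1 and Tcf7.

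Igkc outside the gate was found mostly in Cd3 cells, which held 73 of its 95 ungated UMIs in DFMO and 109 of 169 in water. It had 73 UMIs in 38 of 1723 Cd3 cells in DFMO (2.21%, 1.57 to 3.01) and 109 UMIs in 56 of 1204 in water (4.65%, 3.53 to 6.00). The share was 11.8% and 8.87% in the Foxp3 cells, which held 42 and 30 of these UMIs and 0 Ighv or Igkv UMIs. No Igkc UMI was seen in the 149 and 261 cells with Ncr1 and Klrb1c, which by the same 3 counts allows shares of cells with a UMI of up to 2.01% and 1.15%, and 1 was seen in each library in cells with Lyz2, Csf1r and Cd68.

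Cells with at least 3 UMIs of Siglech, Ccr9 and Klk1 summed, genes of plasmacytoid dendritic cells, also held immunoglobulin UMIs and are called Siglech cells. They numbered 5 in DFMO and 32 in water, so the DFMO values rest on few cells. The part of stray RNA from other cells was not tested here either. The water cells had 66 Ighm, 49 Igkc, 96 Iglc2 and 194 Iglc3 UMIs, with 4 Igkv UMIs and 0 Ighv UMIs. Iglc3 was found in 23 of the 32 (71.9%, 53.3 to 86.3). The 5 DFMO cells had 17 Iglc2 and 33 Iglc3 UMIs. Ungated cells with at least 20 immunoglobulin UMIs numbered 7 in water, all of them Siglech cells, with 232 immunoglobulin UMIs in all and 1 V segment UMI among them. There were 4 in DFMO, of which 2 were Siglech cells, 1 had 18 Igkv UMIs of 26, and 1 had 16 Ighm and 6 Igkc UMIs with 21 Cd3 UMIs.

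**Figure D5:**
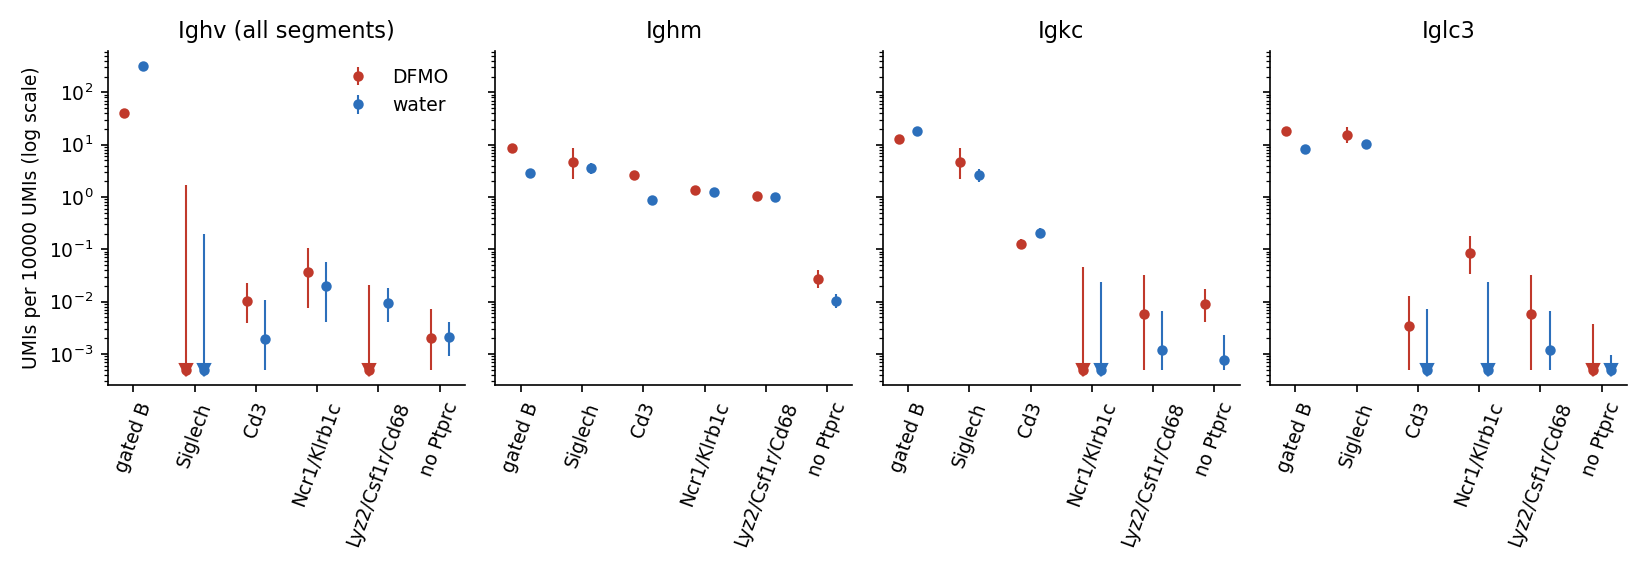
UMIs per 10000 UMIs (log axis) of all Ighv segments, Ighm, Igkc and Iglc3 in gated B cells and in ungated cells with the marker genes named on the axis, for DFMO (red) and water (blue), with exact 95% intervals. Triangles at the foot mark 0 UMIs, and intervals that reach below the axis are drawn to its foot. Ighm lies between 0.879 and 4.71 in the Siglech, Cd3, Ncr1 and Klrb1c, and Lyz2, Csf1r and Cd68 cells, where Ighv reached at most 0.0367.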

How the data were processed

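The authors deposited 1 matrix of UMI counts per gene and cell, made from 10x Chromium 5′ libraries on mm10, with Cell Ranger 3.02 and Scanpy 1.4.4 per the submitters' processing notes. Whether counting used strand is not given in the sources used here. Each cell's library came from the deposited cell table, where the rows named Control were taken as the water sample. One label gives the gavage as daily and another as more frequent. The members and gene lists were chosen with earlier results of these data known. Gene names, coordinates and coding sequences were matched by identifier to GENCODE M21 for all 211 members.

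Counts were used as deposited, with no further filter on cells and no doublet removal. Rates are UMIs of a gene per 10000 UMIs of the cells. Gates for ungated cells needed 3 UMIs of the named genes summed and under 3 of the myeloid and of the Siglech, Ccr9 and Klk1 genes where another type was meant. Myeloid cells also had under 3 Cd3 UMIs, natural killer gene cells had 0, and cells without Ptprc had 0 Cd3 and myeloid UMIs. Thinning drew 1000 UMIs per cell without replacement. Word sharing was counted over 31-base words. Named genes were all constant genes and Iglv segments, the 10 Ighv and 10 Igkv segments called in most DFMO cells, segments called in at least 2 water cells, and the list of 23 genes. Some items of the lists are not reported here and were left out of their counts. Ratio intervals were tried on simulated Poisson counts, summed per gene for the gated comparison and without cells. Of the intervals over 8926 genes, 96.4% held the true ratio. Of 200 genes changed by 2 on the log2 scale, 97.5% passed 1, against 6.23% of unchanged genes. The intervals assume such counts, so the simulation could not test them for UMIs that lie in few cells, as in the high cells. Library sizes by edgeR's TMM (edgeR 4.0.16, run in R 4.3.3) were tried as another scaling. The software was Python 3.11.15, numpy 2.4.6, scipy 1.17.1, pandas 2.3.3, biopython 1.88 and matplotlib 3.10.9.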

Additional observations from a re-analysis of the deposited data

How the results depend on the processing

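No paired analysis was possible because both groups consist of a single library. Of 76 values recomputed under another setting, 50 stayed within the counting interval of the reported value (or, for gene counts and the chance of a shared segment, which have no interval, within 1.5 times it), and so did 16 of 24 whose settings were added after seeing the data. Immunoglobulin UMIs per 10000 in gated cells moved in DFMO to 243.9 (gate of 2 UMIs), 261.4 (cells with T or myeloid genes left out), 267.3 (mean over cells), 225.1 (cells with at least 500 immunoglobulin UMIs left out) and 234.7 (both left out). In water they moved to 536.6 (gate of 2 UMIs), 1285 (gate of 5 UMIs), 1285 (cells with T or myeloid genes left out), 517.4 (mean over cells), 105.3 (high cells left out) and 156.9 (both). The kappa share by constant genes moved in DFMO to 2.94% (thinned) and 94.7% (V segments), and in water to 0% (thinned, and again with at least 5 UMIs and 0.9) and 95.5% (V segments). The switched share moved in DFMO to 0.596% (thinned) and 3.12% (at least 5 UMIs), and in water to 61.5% (at least 5 UMIs), 6.82% (high cells left out) and 7.89% (both left out). With at least 5 Ighv UMIs and over 0.8 in 1 segment, the Ighv1 share was 56.3% and 44.8%. The share of ungated cells with an Igkc UMI was 1.74% in DFMO and 1.25% in water, and 0.463% and 0.563% when thinned. The order of the libraries thus turned, and their intervals overlap in both settings. Ungated immunoglobulin per 10000 was 1.05 and 0.355 in cells with 0 gate UMIs, 1.05 and 0.359 without cells of at least 20 immunoglobulin UMIs, and 2.80 and 0.883 as a mean over cells. With at least 100 UMIs per gene, 1057 genes were above 1 and 319 below -1, and with at least 10, 1377 were below -1. TMM moved the ratios by -0.04. The cause of these moves was not tested. The 58 heavy calls and 50 isotype calls in water limit what can be seen there.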
